A study of Mus musculus with 48 samples.

Results

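The genes described here encode 10 acute phase proteins of the mouse: the serum amyloids Saa1, Saa2, Saa3 and Saa4, the orosomucoids Orm1 and Orm2, lipocalin 2 (Lcn2), haptoglobin (Hp), C-reactive protein (Crp) and serum amyloid P component (Apcs). They were picked by symbol from 29221 genes with read counts in whole liver. All 10 were found, and all 10 passed the filter on low counts in each of 24 comparisons. The 48 adult mice carried floxed Pparg alleles and each was given an adeno-associated virus after 16 weeks on its diet. The virus was AAV8-TBG-Cre, in which the hepatocyte promoter TBG drives Cre recombinase (the labelled knockout), or AAV8-TBG-null (the control). Males ate a high fat diet (HF) for 34 weeks, or HF for 18 weeks and then the HFCF diet (high in fructose and cholesterol as well as fat) for 16 weeks, with 6 livers for each diet and genotype. Females had these regimens or 34 weeks of a low fat diet (LF), with 4 livers for each diet and genotype. The male and female mice have separate ranges of animal numbers, so sex and cohort cannot be told apart.

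The acute phase response is the change in secreted proteins that the liver makes during infection, injury or inflammation. Interleukin 6, acting through its receptor and STAT3, and interleukin 1, acting through NF-kB, are its main signals to hepatocytes, and C/EBP factors share in the induction. Saa1, Saa2, Orm2 and Lcn2 are strongly inducible in mouse liver and are called the inducible genes below. That name does not mean that other members cannot be induced. Saa4 is known as the constitutive serum amyloid. In the mouse Apcs, not Crp, is the pentraxin that responds strongly, and negative acute phase proteins such as albumin and transthyretin fall while the others rise.

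Pparg, the gene targeted by the Cre virus, was not lower as a group in the libraries labelled knockout. In reads scaled to library size (CPM) it ranged from 18 to 61.6 in HF male labelled knockouts and from 27.7 to 38.1 in their controls. In HFCF males the ranges were 48.4 to 63.7 and 26 to 39.1. In females they were 10.4 to 23 and 7.8 to 14.7 on LF, 20.3 to 38.9 and 13.3 to 23.2 on HF, and 39.1 to 59.3 and 21.7 to 25.2 on HFCF. The deposited count covers the whole gene, inside and outside the deleted part, so it does not check the deletion, and the groups are called labelled knockouts throughout. Libraries held 15338239 to 22072884 reads on genes. In 5 libraries the median correlation with the rest of the group was under 0.97: replicate 1 of the female HF controls (0.956), of the female HFCF labelled knockouts (0.957), of the female LF controls (0.966) and of the male HFCF controls (0.969), and replicate 3 of the female HF labelled knockouts (0.969). That last library summed to 183 CPM over 11 neutrophil markers, with S100a8 at 27 CPM and S100a9 at 41.5 CPM, against at most 41.4 CPM in any other library. Beside the results, values without these 5 libraries are called values without the livers that stood apart. The 8 hepatocyte markers, Alb among them, summed to 37600 to 118000 CPM over all libraries, and Alb was at least 26600 CPM in each. Because whole tissue was measured, fewer cells of a type and less RNA per cell cannot be told apart.

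The 4 serum amyloid genes lie together on chromosome 7 of GRCm38, in the order Saa3 (chr7:46711998-46715700), Saa4 (chr7:46727998-46732603), Saa1 (chr7:46740497-46742980) and Saa2 (chr7:46751790-46754313). Saa2 is on the plus strand and the others are on the minus strand. Orm1 (chr4:63344560-63348163) and Orm2 (chr4:63362449-63365878) are neighbours on chromosome 4, and the pentraxins Crp (chr1:172698055-172833031) and Apcs (chr1:172893961-172895041) on chromosome 1. Lcn2 (chr2:32384633-32388252) and Hp (chr8:109575128-109579172) stand alone. The longest coding transcripts of Saa1 and Saa2 matched in 94.4% of 606 aligned bases, and those of Orm1 and Orm2 in 91% of 775, so the division of reads within each pair is uncertain. RefSeq promoter sequences of GRCm38.p6 were matched for 8 of the 10 genes, all but Orm1 and Hp. The upstream windows of Saa1 and Saa2 are shown because these genes moved together. That of Saa4 is shown because it moved the other way on HFCF against HF. That of Orm2 is shown as an inducible gene from another locus. Each runs 5′ to 3′ on the strand of its gene from 250 bases before the RefSeq start, and capitals mark matches to TTGCNNAA (the C/EBP type), TTCNNNGAA (the STAT type) or GGGNNNNNCC (the NF-kB type) on either strand, or to TATAAA on the gene's strand.
Saa1, chr7:46742981-46743230, minus strand: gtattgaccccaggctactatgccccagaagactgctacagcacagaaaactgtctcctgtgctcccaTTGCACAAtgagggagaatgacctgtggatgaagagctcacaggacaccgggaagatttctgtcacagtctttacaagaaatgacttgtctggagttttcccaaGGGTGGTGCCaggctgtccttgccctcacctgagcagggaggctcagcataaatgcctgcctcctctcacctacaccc
Saa2, chr7:46751583-46751789, plus strand: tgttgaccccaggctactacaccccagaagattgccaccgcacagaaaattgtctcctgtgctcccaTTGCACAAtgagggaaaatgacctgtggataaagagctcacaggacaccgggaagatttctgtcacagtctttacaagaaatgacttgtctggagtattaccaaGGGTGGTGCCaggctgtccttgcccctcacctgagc
Saa4, chr7:46732604-46732853, minus strand: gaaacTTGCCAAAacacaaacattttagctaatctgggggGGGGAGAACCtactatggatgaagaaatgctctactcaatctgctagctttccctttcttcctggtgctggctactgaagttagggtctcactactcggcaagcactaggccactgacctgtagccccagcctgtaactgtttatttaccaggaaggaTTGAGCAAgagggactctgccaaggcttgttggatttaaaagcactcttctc
Orm2, chr4:63362199-63362448, plus strand: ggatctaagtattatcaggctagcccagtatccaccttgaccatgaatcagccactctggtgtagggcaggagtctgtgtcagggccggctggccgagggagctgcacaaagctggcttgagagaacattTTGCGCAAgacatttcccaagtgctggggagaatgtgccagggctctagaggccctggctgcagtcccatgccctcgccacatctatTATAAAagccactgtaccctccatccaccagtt
The Saa2 window stops 44 bases before the start because GENCODE M21 places the remaining bases in an exon.

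Over 250 bases, the Saa1 and Saa2 windows matched in 95.6% of 249 aligned bases. Both carried TTGCACAA, 182 bases before the start of Saa1 and 183 before that of Saa2, and both carried GGGTGGTGCC, from 78 and 79 bases before it. Orm2 carried TTGCGCAA at 120 bases and TATAAA at 33 bases. In Lcn2 the C/EBP-type match was TTGCTCAA at 216 bases and the NF-kB-type match GGACTACCCC at 102 bases. Of the 192 bases kept of the Lcn2 window, which is not shown, 139 lie in an exon of another Lcn2 transcript in GENCODE M21. The C/EBP-type match is among them, so that window is not purely upstream sequence. Saa4, which behaved unlike the inducible genes, also held C/EBP-type matches, TTGCCAAA at 245 bases and TTGAGCAA at 52 bases. TTGCNNAA was found in 6 of the 8 windows (Saa1, Saa2, Saa3, Saa4, Orm2 and Lcn2) and in 9.55% of all 27025 RefSeq windows of the same length. GGGNNNNNCC was found in 5 of 8 (Saa1, Saa2, Saa4, Lcn2 and Crp) and in 45.4% of all windows. TTCNNNGAA was found in Apcs alone among the 8 and in 7.18% of all windows, and TATAAA in Orm2 and Crp and in 8.12%. No match overlapped a match to another of these motifs, though 2 of the 3 NF-kB-type matches in Crp overlap each other. Letters of this kind are a description of the windows and do not show binding.

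Hp, the haemoglobin scavenger, had the highest level of the 10 genes in each of the 10 groups, Orm1 the second and Saa3 the lowest. Per kilobase of the deposited gene length, the mean over 48 libraries was 2460 CPM per kb for Hp and 685 for Orm1, a carrier protein of plasma. It was 128 CPM per kb for Saa4, 102 for Crp, 93.3 for Apcs, 63.9 for Saa1, 41.5 for Orm2, 40.8 for Saa2, 31.5 for Lcn2 and 2.27 for Saa3. From Saa4 down to Lcn2 the order varied among groups. It also depended on the length used: the deposited length of Saa1 is 2478 bases, but its longest coding transcript in GENCODE M21 has 609. Per kilobase of that transcript the level of Saa1 was 259 CPM per kb, the third of the 10, and that of Saa4 was 128, the sixth. Between livers the inducible genes ranged most widely: the highest CPM was 31.3 times the lowest for Saa2, 29.7 times for Lcn2, 22.6 times for Saa1 and 14.3 times for Orm2. Saa3 spanned 9.04 times, Apcs 4.68, Saa4 4.35, Orm1 3.14, Hp 2.53 and Crp 2.13.

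**Figure D1:**
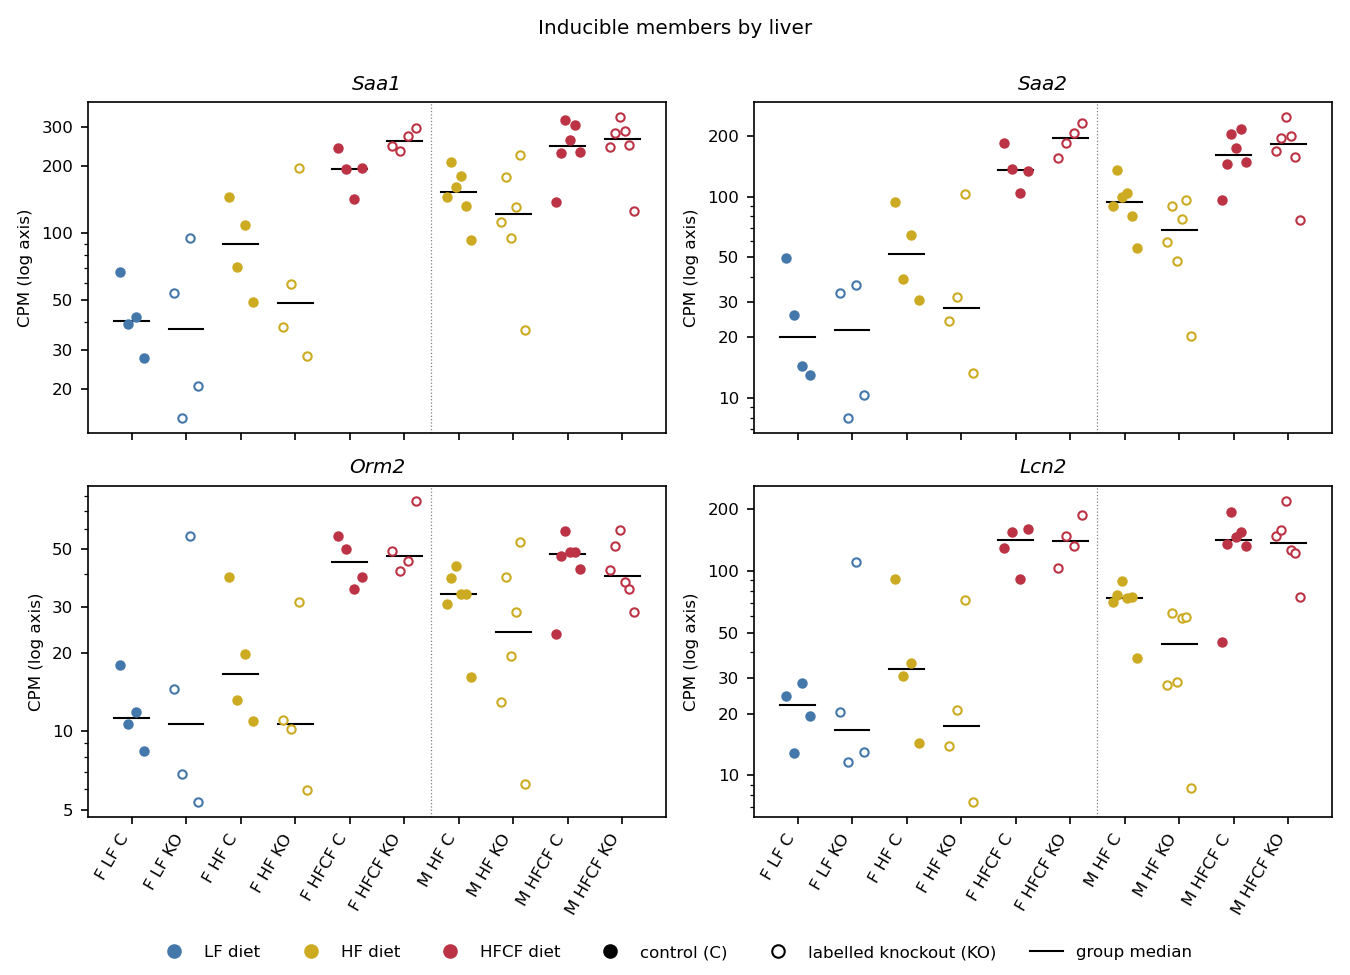
CPM of Saa1, Saa2, Orm2 and Lcn2 on a log axis in each of 48 livers, by sex (F, M), diet and genotype (C, control; KO, labelled knockout); points are livers and bars are group medians. HFCF livers are mostly the highest in both sexes, and single HF or LF livers, such as the highest Lcn2 value of the LF labelled knockouts (111 CPM), reach the same level.

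On HFCF against HF, Saa2 and Lcn2 were called higher and Saa4 lower in both sexes and both genotypes. Saa1 was called higher in all of these but the labelled-knockout females, where its 3.24-fold difference missed the threshold (adjusted p = 0.0563). The edgeR quasi-likelihood test with Benjamini-Hochberg adjustment over all genes (a gene is called at an adjusted p under 0.05) called 6 of 10 members in control females, with 5 higher and 1 lower, when 30.8% of all genes tested were called. In labelled-knockout females 4 of 10 were called, with 3 higher and 1 lower, against 14.5% of all genes. In control males 5 were called, with 3 higher and 2 lower, against 22.3%, and in labelled-knockout males 7, with 3 higher and 4 lower, against 41.7%. Set against the LF diet, HFCF gave 6 called members in control females, with 4 higher and 2 lower (35.2% of all genes), and 3 in labelled-knockout females, with 2 higher and 1 lower (12.0%). Comparisons that use the same HFCF livers are not independent of each other. Without the libraries that stood apart, the counts were 7 in control females and 7 in labelled-knockout females against HF, 6 and 4 against LF, and 6 in control males. Over all genes, 6530 were then called in place of 4526 in control females against HF, and 5429 in place of 3225 in control males. Against LF they were 5694 in place of 5199 in controls and 3587 in place of 1754 in labelled knockouts. In labelled-knockout females against HF, leaving out HFCF replicate 1 alone gave 4402 in place of 2118. The 7 in labelled-knockout females were Saa1, Saa2, Saa4, Orm1, Orm2, Lcn2 and Hp.

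**Figure D2:**
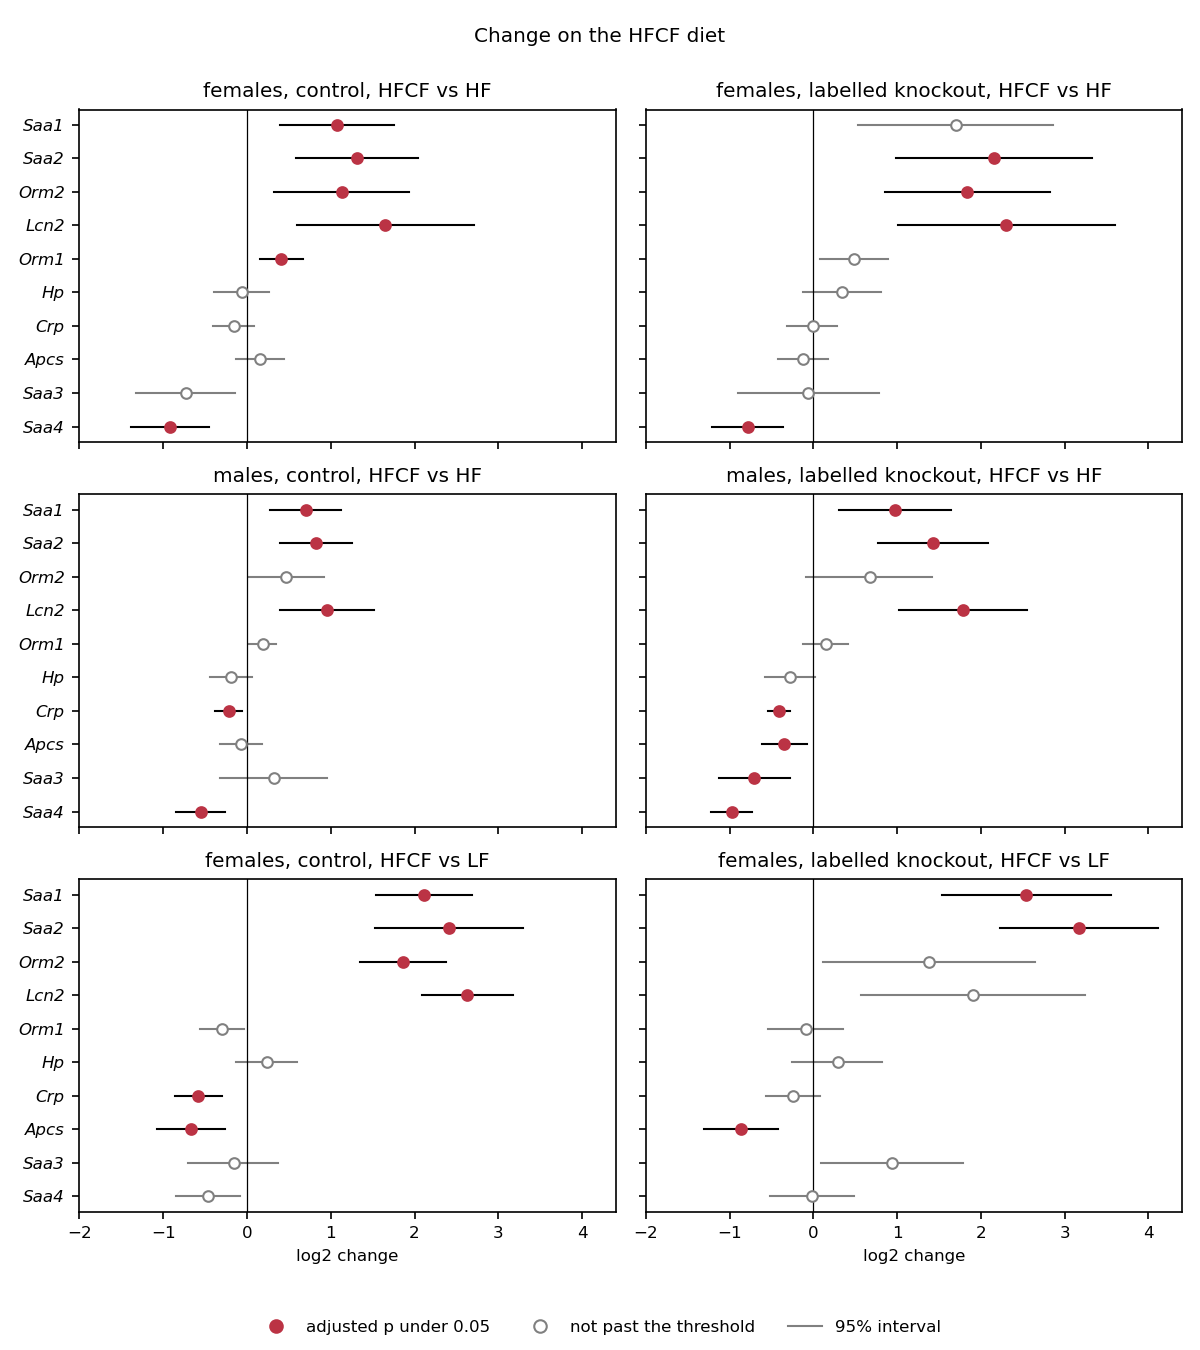
log2 change (horizontal axis) of each of the 10 genes on the HFCF diet against the HF or LF diet, with its 95% interval; filled points passed an adjusted p of 0.05. Saa1, Saa2, Orm2 and Lcn2 lie right of 0 in all 6 panels, and Saa4 lies left of 0 in all 4 panels against HF, at -0.55 to -0.97.

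Saa1 and Saa2 encode the major serum amyloids, apolipoproteins carried on high density lipoprotein during inflammation. Saa1 measured 145, 70.3, 109 and 49.2 CPM in the 4 control females on HF and 241, 194, 143 and 196 CPM on HFCF. All but 1 of the HFCF livers exceeded every HF liver, and the remaining liver (143 CPM) fell just under the highest HF liver, replicate 1. The change was 2.09-fold (log2 1.07, SE 0.30, adjusted p = 0.0275), and without that HF liver, the one that stood apart here, it was 1.37 on the log2 scale. In labelled-knockout females Saa1 measured 37.8, 59.3, 196 and 28 CPM on HF and 246, 235, 274 and 296 CPM on HFCF. These groups did not overlap, yet the 3.24-fold difference missed the threshold (adjusted p = 0.0563), with replicate 3, the liver high in neutrophil markers, well above its group. On LF the values were 67.1, 39, 42 and 27.5 CPM in controls and 53.7, 14.8, 95 and 20.7 CPM in labelled knockouts, all below every HFCF liver of their genotype. HFCF against LF raised Saa1 4.33-fold in controls (adjusted p = 5.98e-04) and 5.82-fold in labelled knockouts (adjusted p = 0.00683), calls kept in all 8 fits without 1 library each. Without the livers that stood apart these changes were 2.42 and 2.56 on the log2 scale, beside 2.11 and 2.54 with them.

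In control males Saa1 ran from 93.2 through a median of 153 to 210 CPM on HF, and from 139 through 247 to 322 CPM on HFCF. In 5 of 6 HFCF livers it exceeded every HF liver. The rise was 1.62-fold (log2 0.70, SE 0.20, adjusted p = 0.0206), and 0.82 on the log2 scale without the liver that stood apart. In labelled-knockout males it ran from 36.8 through 122 to 224 CPM on HF and from 126 through 265 to 333 CPM on HFCF, a 1.96-fold rise (adjusted p = 0.0222). In 5 of 6 HFCF livers it exceeded every HF liver. The control call was lost without HFCF replicate 3 or 5 and the labelled-knockout call without HF replicate 3, with log2 changes of at least 0.58 and 0.77 in all fits that left out 1 library.

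Saa2 followed Saa1 liver by liver and changed more. In control females it measured 93.7, 39.2, 64.9 and 30.6 CPM on HF and 185, 138, 105 and 134 CPM on HFCF, with no overlap. It rose 2.48-fold (log2 1.31, SE 0.33, adjusted p = 0.0172), and by 1.66 on the log2 scale without the liver that stood apart. In labelled-knockout females it measured 24.2, 31.8, 103 and 13.3 CPM on HF and 156, 184, 207 and 232 CPM on HFCF, again with no overlap. It rose 4.45-fold (log2 2.16, SE 0.53, adjusted p = 0.0247), and by 3.19 on the log2 scale without the livers that stood apart. Against LF, where Saa2 measured 49.9, 25.8, 14.5 and 13 CPM in controls and 33.4, 7.95, 36.5 and 10.3 CPM in labelled knockouts, the rise was 5.31-fold (adjusted p = 0.00185) and 9.01-fold (adjusted p = 0.00224). These were log2 changes of 2.41 and 3.17, and 2.98 and 3.24 without the livers that stood apart. In males Saa2 had medians of 94.7 CPM on HF and 162 CPM on HFCF in controls (ranges 55.9 to 136 and 96.6 to 218), a 1.76-fold rise (log2 0.82, adjusted p = 0.0101, and 0.93 without the liver that stood apart). In labelled knockouts the medians were 68.4 and 183 CPM (ranges 20.4 to 96.3 and 76.9 to 249), a 2.69-fold rise (adjusted p = 0.00181). Reads of Saa2 were 0.573 to 0.645 times those of Saa1 in HF control males and 0.681 to 0.766 times in HFCF control females. The 2 genes share most of their sequence, so this ratio depends on how reads were divided between them.

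Orm2, which encodes an orosomucoid, is counted here among the inducible genes. It measured 39.1, 13.2, 19.9 and 11 CPM in control females on HF and 56, 50, 35.2 and 39.1 CPM on HFCF. The HF liver at 39.1 CPM was again replicate 1, and the other three HF livers lay below every HFCF liver. The rise was 2.18-fold (log2 1.13, adjusted p = 0.0399), and 1.64 on the log2 scale without that liver. In labelled-knockout females Orm2 measured 11.1, 10.2, 31.3 and 5.94 CPM on HF and 49.2, 41.1, 44.9 and 76.5 CPM on HFCF, without overlap, a 3.56-fold rise (log2 1.83, adjusted p = 0.0236). Without the livers that stood apart, among them HF replicate 3 (31.3 CPM), it was 2.60 on the log2 scale. On LF it measured 17.9, 10.7, 11.9 and 8.38 CPM in controls, and HFCF exceeded that 3.63-fold (log2 1.86, adjusted p = 5.99e-04, and 2.12 without the liver that stood apart). In LF labelled knockouts it measured 14.5, 6.88, 56.3 and 5.36 CPM, where replicate 3 reached the HFCF range, and the 2.6-fold difference was not called (adjusted p = 0.148). In males Orm2 was not called: medians were 33.7 and 47.9 CPM in controls and 24 and 39.4 CPM in labelled knockouts, with adjusted p = 0.125 and 0.147. In control males it was called without HFCF replicate 1, which at 23.6 CPM was the lowest of its group.

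Lcn2 encodes lipocalin 2, which binds the siderophores that bacteria use to take up iron. In control females it measured 91.7, 30.5, 35.6 and 14.4 CPM on HF and 129, 156, 91 and 161 CPM on HFCF, a 3.14-fold rise (log2 1.65, SE 0.47, adjusted p = 0.0275). Without HF replicate 1, the liver at 91.7 CPM, the change was 2.35 on the log2 scale. In labelled-knockout females it measured 14, 20.8, 72 and 7.41 CPM on HF and 104, 148, 132 and 188 CPM on HFCF, without overlap, a 4.94-fold rise (log2 2.30, adjusted p = 0.0281). Without the livers that stood apart, among them HF replicate 3 (72 CPM), it was 3.50 on the log2 scale. On LF it measured 24.6, 12.9, 28.3 and 19.5 CPM in controls and 20.4, 11.7, 111 and 13 CPM in labelled knockouts. HFCF exceeded LF 6.21-fold in controls (log2 2.63, SE 0.25, adjusted p = 2.44e-04, and 2.73 without the liver that stood apart), and the 3.74-fold difference in labelled knockouts was not called (adjusted p = 0.0639). In control males the medians were 74.1 CPM on HF (37.4 to 89) and 141 CPM on HFCF (44.8 to 195), a 1.94-fold rise (log2 0.95, adjusted p = 0.0185, and 1.13 without the liver that stood apart). In labelled-knockout males they were 44 CPM (8.69 to 62.4) and 137 CPM (75 to 220), without overlap, a 3.44-fold rise (log2 1.78, SE 0.36, adjusted p = 0.0011). In males the Lcn2 calls were kept in all 12 fits without 1 library each. In control males, however, the calls of Saa1, Saa2 and Lcn2 were all lost when the 48 libraries were fitted together.

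The calls against HF in females rested on few livers. Of the 8 fits that each left out 1 control liver, Saa4 was called in 8 and Saa2 in 7, failing without HFCF replicate 1. Orm1 was called in 4, Saa1 and Lcn2 in 3 and Orm2 in 2, and the number of called members ran from 1 without HFCF replicate 1 to 7 without HF replicate 1. In labelled knockouts it ran from 0 without HF replicate 1 to 7 without HF replicate 3. Over all genes the number called ran from 2454 to 6530 in controls and from 866 to 4402 in labelled knockouts. No called log2 change turned its sign in any of these fits. Against LF, the number of called members was 5 or 6 in controls and between 2 and 5 in labelled knockouts, the lowest without HFCF replicate 2 and the highest without LF replicate 3.

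On HFCF against HF, Saa4 moved opposite to Saa1 and Saa2, its neighbours on chromosome 7. In control females it measured 205, 387, 344 and 334 CPM on HF and 161, 136, 221 and 143 CPM on HFCF. Only HF replicate 1 (205 CPM) overlapped the HFCF livers. It fell to 0.529 times the HF level (log2 -0.92, SE 0.21, adjusted p = 0.013), a call kept in all 8 fits without 1 library each, and -1.08 without the liver that stood apart. In labelled-knockout females it measured 332, 332, 480 and 310 CPM on HF and 282, 194, 202 and 168 CPM on HFCF, without overlap (log2 -0.78, SE 0.19, adjusted p = 0.0248). In males it ran from 210 through 244 to 352 CPM in HF controls and from 144 through 175 to 232 CPM in HFCF controls (log2 -0.55, SE 0.14, adjusted p = 0.0119). In labelled-knockout males it ran from 340 through 450 to 591 CPM on HF and from 197 through 244 to 258 CPM on HFCF. Those groups did not overlap, and the change (log2 -0.97, SE 0.12, adjusted p = 1.53e-05) had the smallest adjusted p of any member in any comparison. On LF it measured 246, 174, 247 and 233 CPM in controls and 199, 209, 323 and 141 CPM in labelled knockouts, and HFCF against LF was not called (log2 -0.46 and -0.02, adjusted p = 0.0618 and 0.965). The ratio of Saa1 to Saa4 per deposited kilobase had a median of 0.211 in HF control females and 1.18 in HFCF control females, and of 0.5 and 1.32 in control males.

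**Figure D3:**
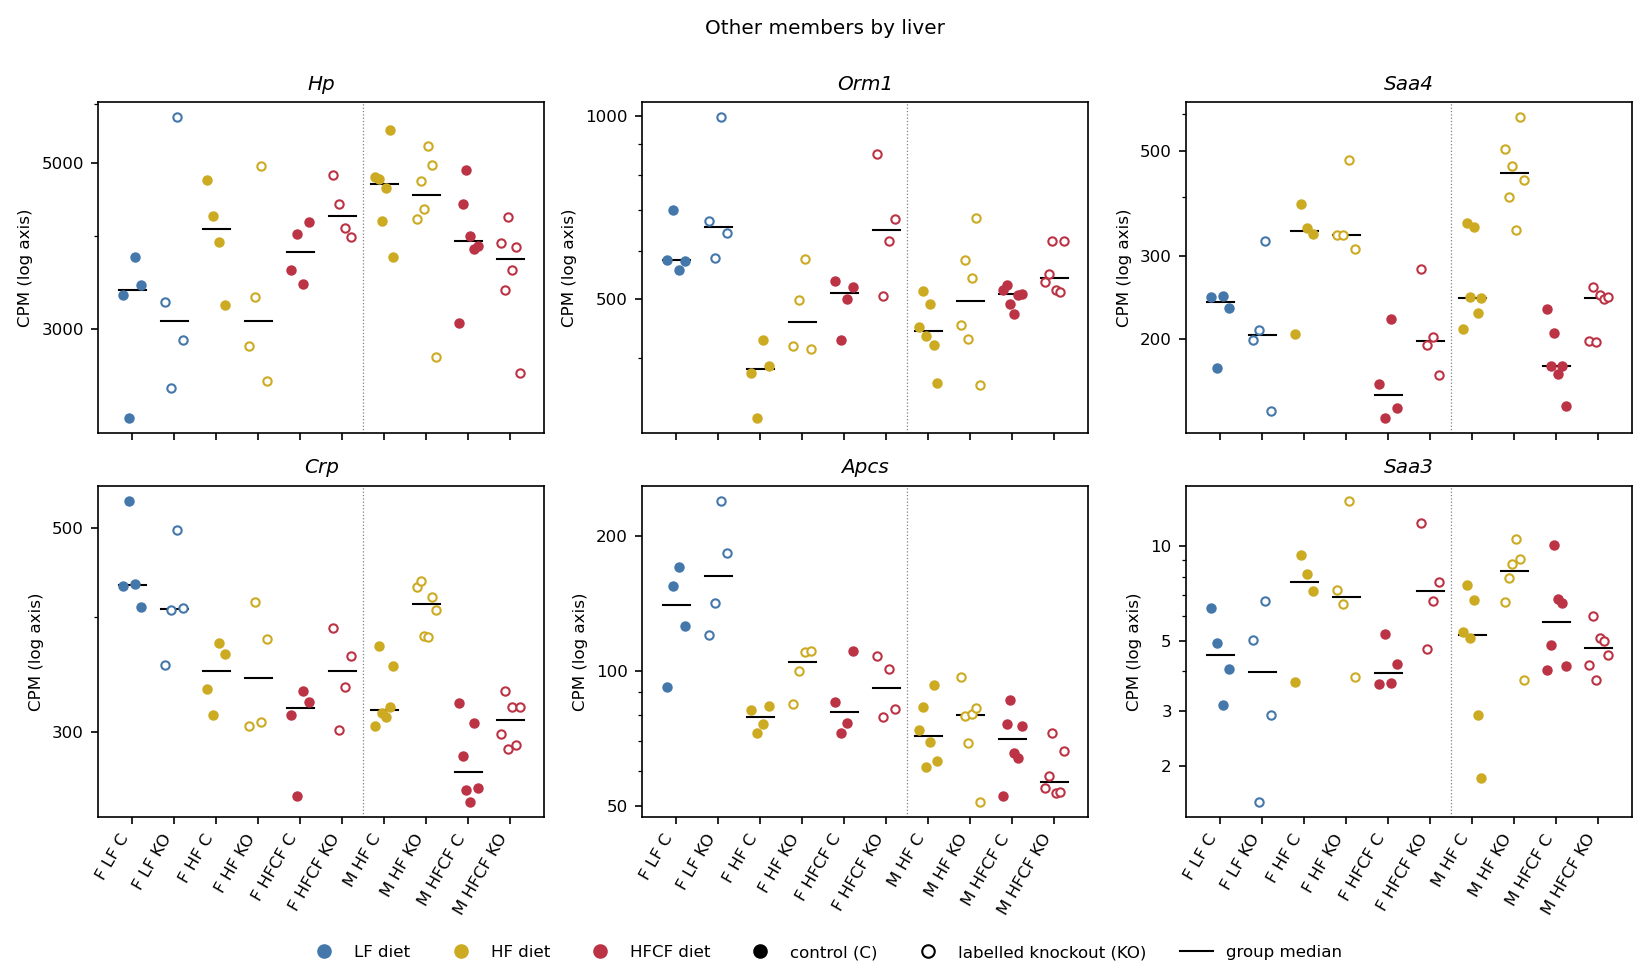
CPM of Hp, Orm1, Saa4, Crp, Apcs and Saa3 on a log axis in each of 48 livers, with groups, points and bars as in the plot of the inducible genes. Saa4 is highest in HF male labelled knockouts (340 to 591 CPM), and Apcs is highest on LF (92.2 to 239 CPM).

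Haptoglobin was not called with diet, and Orm1 was called in part of the comparisons. Hp measured 4750, 4250, 3930 and 3230 CPM in HF control females and 3600, 4020, 3450 and 4170 CPM in HFCF control females. Its medians in control males were 4700 and 3940 CPM. None of the 6 HFCF comparisons called Hp, with log2 differences from -0.28 to 0.34, although it was called in labelled-knockout females against HF without the livers that stood apart. Orm1 measured 378, 318, 428 and 387 CPM in HF control females and 535, 427, 499 and 524 CPM on HFCF, a 1.33-fold rise (log2 0.41, adjusted p = 0.0247, and 0.42 without the liver that stood apart). In the other 5 HFCF comparisons it was not called, with log2 differences from -0.30 to 0.48. On LF Orm1 measured 580, 701, 558 and 577 CPM in controls and 671, 583, 997 and 641 CPM in labelled knockouts, above every HF liver of the same genotype.

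The pentraxins Crp and Apcs, pattern-recognition proteins of plasma, were lower in part of the HFCF comparisons. Crp ran from 305 through 317 to 372 CPM in HF control males and from 252 through 272 to 323 CPM in HFCF control males (log2 -0.22, SE 0.08, adjusted p = 0.0469), a call lost in 9 of 12 fits without 1 library each. In labelled-knockout males it ran from 381 through 414 to 438 CPM on HF and from 288 through 309 to 333 CPM on HFCF. These groups did not overlap (log2 -0.41, SE 0.06, adjusted p = 1.08e-04). In control females Crp measured 433, 535, 435 and 410 CPM on LF, 334, 313, 375 and 365 CPM on HF and 313, 256, 333 and 324 CPM on HFCF, and fell from LF to HFCF (log2 -0.58, SE 0.13, adjusted p = 0.00628). Apcs measured 92.2, 155, 170 and 126 CPM on LF, 81.7, 72.8, 76.1 and 83.8 CPM on HF and 85.4, 72.7, 76.8 and 111 CPM on HFCF in control females. In labelled-knockout females it measured 120, 142, 239 and 183 CPM on LF, 84.3, 100, 110 and 111 CPM on HF and 108, 78.9, 101 and 82.5 CPM on HFCF. The LF livers were the high ones, except control replicate 1 (92.2 CPM), which lay below the highest HFCF control. Apcs fell from LF to HFCF in controls (log2 -0.67, SE 0.18, adjusted p = 0.0187) and in labelled knockouts (log2 -0.86, SE 0.20, adjusted p = 0.0191). The first call was lost without LF replicate 2 or HFCF replicate 1, 2 or 3 (log2 between -0.81 and -0.55), the second without HFCF replicate 2 or 4 (between -1.01 and -0.66). In labelled-knockout males Apcs fell from a median of 79.7 CPM (51.1 to 97) to 56.7 CPM (53.6 to 72.9), with overlap (log2 -0.35, adjusted p = 0.0351), a call lost in 8 of 12 fits without 1 library each.

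Saa3, which mouse macrophages and adipose tissue also express, was low in every liver, at 1.54 to 13.9 CPM and never under 23 reads. In labelled-knockout males it fell from a median of 8.35 CPM on HF (3.76 to 10.5) to 4.76 CPM on HFCF (3.76 to 6.02), with adjusted p = 0.0098 and overlap between the groups. In control males the medians were 5.22 and 5.74 CPM and the difference was not called (adjusted p = 0.478). In control females it measured 3.7, 9.34, 8.14 and 7.19 CPM on HF and 3.64, 5.24, 3.67 and 4.22 CPM on HFCF, a log2 difference of -0.73 that missed the threshold (adjusted p = 0.0619). Its highest value, 13.9 CPM, was in the female HF liver with neutrophil transcripts.

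Markers of other cells moved with the HFCF diet. The 11 Kupffer cell and macrophage markers summed to 371 to 640 CPM in HF control females and 1040 to 1320 CPM in HFCF control females, and 7 of 11 were called higher. In control males the sums were 325 to 578 and 553 to 1160 CPM, with 7 of 11 higher, and none of these markers was at 0 in any library. In labelled-knockout females 4 of 11 were higher. In labelled-knockout males 8 were higher and 2, Marco and Timd4, were lower. All 5 cholangiocyte markers were higher in control females, control males and labelled-knockout males, and 4 of 4 tested were higher in labelled-knockout females. Of 7 stellate cell markers, 2 were higher in control females, 6 in labelled-knockout females, 5 in control males and 6 in labelled-knockout males. Hepatocyte markers moved the other way: 5 of 8 were lower in control females, 4 of 8 in control males, 7 of 8 in labelled-knockout males and 0 of 8 in labelled-knockout females. Their median log2 changes in this order were -0.55, -0.32, -0.61 and -0.41. Of all genes tested, 30.8%, 22.3%, 41.7% and 14.5% were called. In labelled-knockout females 5 of 8 hepatocyte markers had an unadjusted p under 0.05 by edgeR, beside 4419 of 14650 genes tested. Neutrophil markers summed to 13.4 to 41.4 CPM in HFCF control females and 4.15 to 11.1 CPM in HF control females, without overlap. Of those tested, 1 of 4 was higher in control females and 1 of 3 in control males (Csf3r in both), 3 of 4 in labelled-knockout males (Csf3r, S100a8 and S100a9) and 0 of 4 in labelled-knockout females, with Ly6g at 0 in 38 of 48 libraries. The part of these cell types in the changes of the 10 genes was not tested.

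The HF diet against the LF diet could be compared in females. In controls 1 of 10 members was called, against 0.696% of all genes. Orm1 was lower on HF (378, 318, 428 and 387 CPM) than on LF (580, 701, 558 and 577 CPM), without overlap (log2 -0.68, SE 0.12, adjusted p = 0.0423). The call was lost in each of the 8 fits without 1 library, in which the log2 change ran from -0.74 to -0.61. Crp and Apcs were lower in all 4 HF livers than in any LF liver and missed the threshold (log2 -0.39 and -0.79, adjusted p = 0.14 and 0.0593). Saa1, Saa2 and Lcn2 had log2 differences of 1.08, 1.14 and 1.01 with overlap (adjusted p = 0.174, 0.268 and 0.332). Saa4 differed in the same direction, also with overlap (log2 0.49, adjusted p = 0.249). Without the livers that stood apart, 4 members were called: Saa3, Saa4, Orm1 and Apcs. Over all genes, the fits without 1 library each called 10 to 112, beside 99 with all livers. In labelled knockouts 0 of 10 were called, against 0.155% of all genes. Unadjusted p was under 0.05 for 3, beside 1902 of 14214 genes tested, and the DESeq2 Wald test called 3, Saa4, Orm1 and Apcs.

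The labelled knockout was compared with its control in 5 settings, and members were called in HF males alone. There 2 of 10 were called, both higher, against 18.5% of all genes. Saa4 ran from 210 through 244 to 352 CPM in controls and from 340 through 450 to 591 CPM in labelled knockouts, and 5 of 6 labelled knockouts exceeded every control. It rose 1.68-fold (log2 0.75, SE 0.14, adjusted p = 0.00197). Crp ran from 305 through 317 to 372 CPM in controls and from 381 through 414 to 438 CPM in labelled knockouts, without overlap, a 1.24-fold rise (log2 0.31, SE 0.06, adjusted p = 0.0036). Both calls were kept in all 12 fits without 1 library each. The inducible genes had lower medians in labelled knockouts and were not called in the main test. With replicate number as a block, an alternative fit, 5 members were called, with 3 higher and 2 lower. They were Saa2, Saa3, Saa4, Lcn2 and Crp, beside 2340 of 14041 genes tested. Lcn2 had a median of 74.1 CPM in controls and 44 CPM in labelled knockouts (log2 -0.78, 95% interval -1.49 to -0.06, adjusted p = 0.123), and Saa2 of 94.7 and 68.4 CPM (log2 -0.54, interval -1.13 to 0.06, adjusted p = 0.203). Saa3 had medians of 5.22 CPM in controls and 8.35 CPM in labelled knockouts, with 4 of 6 labelled knockouts above every control, and was not called (log2 0.65, adjusted p = 0.128). Labelled-knockout replicate 6 was the lowest liver of the 12 for Lcn2 (8.69 CPM), Orm2 (6.29 CPM), Saa2 (20.4 CPM), Saa1 (36.8 CPM) and Hp (2750 CPM). Beside these values, 6 of 8 hepatocyte markers were higher in labelled knockouts, 4 of 7 stellate cell markers lower and 3 of 5 red blood cell markers higher, and their part was not tested.

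**Figure D4:**
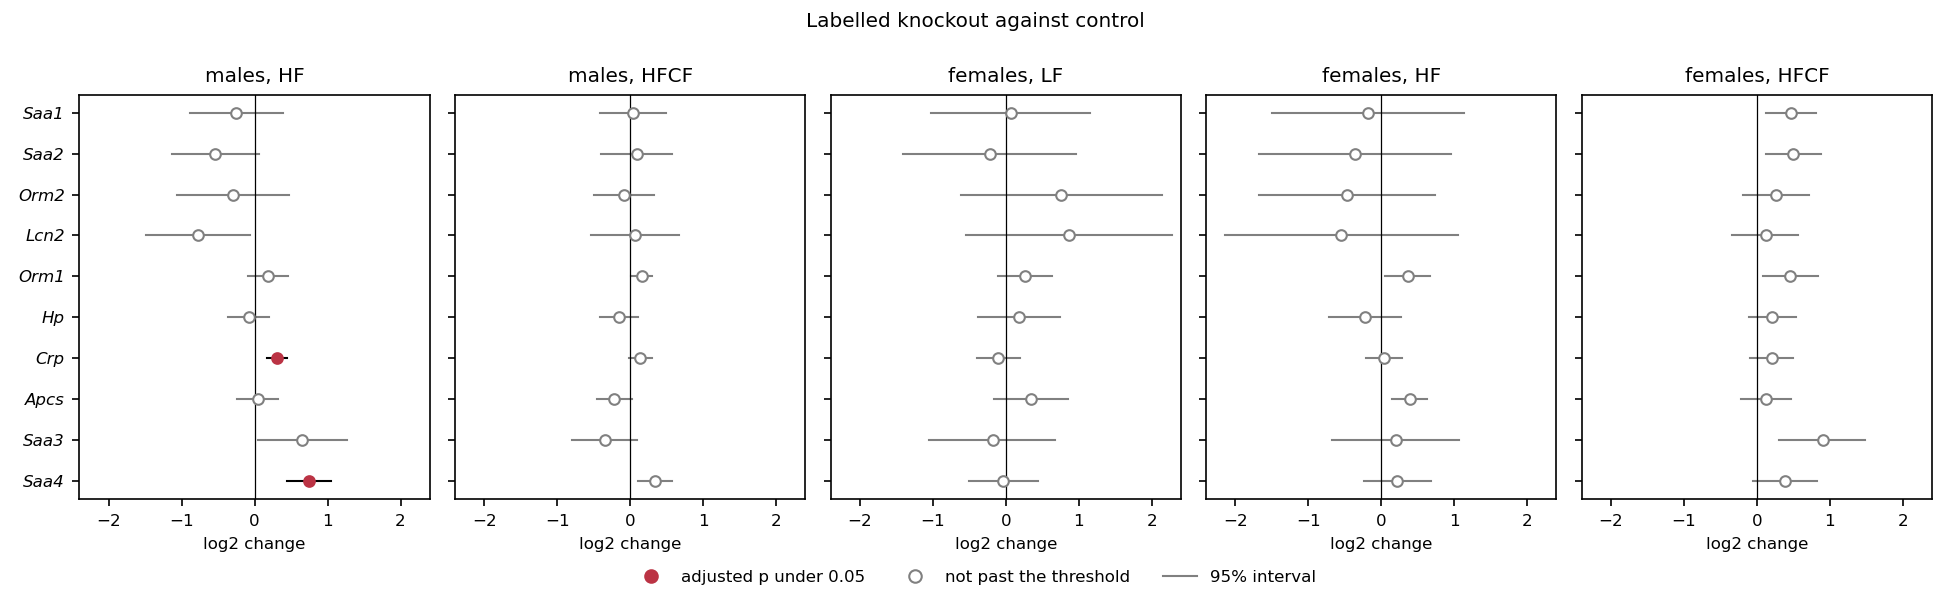
log2 change (horizontal axis) of each of the 10 genes in labelled knockouts against controls in the 5 settings, with its 95% interval; filled points passed an adjusted p of 0.05. Saa4 (0.75) and Crp (0.31) in HF males are the filled points.

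In HFCF males 0 of 10 members were called, against 2.21% of all genes. Unadjusted p was under 0.05 for 2, beside 2085 of 14685 genes tested, and the DESeq2 Wald test called 0. Saa4 ran from 144 through 175 to 232 CPM in controls and from 197 through 244 to 258 CPM in labelled knockouts (log2 0.34, 95% interval 0.11 to 0.57, adjusted p = 0.125), and it was the member called without replicate 1 of the controls. The interval for Saa1 was -0.42 to 0.49 and for Lcn2 -0.53 to 0.67. In females edgeR called 0 of 10 members on LF (0% of all genes), 0 on HF (0%) and 0 on HFCF (0.0534%), and the DESeq2 Wald test called 0 in each. Unadjusted p was under 0.05 for 0, 2 and 4 members, beside 355 of 14285, 1135 of 14128 and 1340 of 14980 genes tested. On HFCF these 4 were Saa1, Saa2, Saa3 and Orm1, with log2 differences of 0.47, 0.50, 0.90 and 0.46 and adjusted p between 0.495 and 0.548. Orm1 measured 535, 427, 499 and 524 CPM in HFCF controls and 866, 506, 624 and 676 CPM in labelled knockouts. Apcs on HF measured 81.7, 72.8, 76.1 and 83.8 CPM in controls and 84.3, 100, 110 and 111 CPM in labelled knockouts, which did not overlap (adjusted p = 0.522). Intervals on LF were wide, for example -0.54 to 2.28 for Lcn2, where labelled-knockout replicate 3 (111 CPM) stood far above its group.

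Whether the labelled knockout acted differently by diet or sex was tested as an interaction, and edgeR called no member. The counts were 0 of 10 for HFCF minus HF in males (1.56% of all genes) and in females (0%), for HF minus LF in females (0%), and for males minus females on HF (0%) and on HFCF (0%). Unadjusted p was under 0.05 for 2, 0, 0, 1 and 1 members. Over all genes it was so for 2574 of 15096, 667 of 15445, 554 of 14938, 1590 of 15024 and 1515 of 15673. The DESeq2 Wald test called 0 members in each. For Saa4 in males the labelled-knockout effect was lower on HFCF than on HF by a log2 difference of -0.42 (95% interval -0.82 to -0.03, adjusted p = 0.252), so the call in HF males is not shown to differ from the value in HFCF males. The effect of HFCF against HF did not differ by sex at the threshold either. Members called were 0 in controls (0.00646% of all genes) and 0 in labelled knockouts (0.0130%), and 0 by the DESeq2 Wald test. Unadjusted p was under 0.05 for 1 and 2 members, beside 2561 of 15491 and 1829 of 15400 genes tested. Without the livers that stood apart, 3 members were called in controls: Saa3, Orm2 and Lcn2. Without replicate 1 of the HF control females alone, 1 was called, and the number called over all genes went from 1 to 1699.

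Males and females were compared at matched diet and genotype. On HF, 0 of 10 members were called in controls (18.1% of all genes) and 0 in labelled knockouts (14.3%). Unadjusted p was under 0.05 for 3 and 2 members, beside 4907 of 14492 and 4206 of 14260 genes tested. The DESeq2 Wald test called 0 and 1, the latter Apcs. Saa1 ran from 93.2 to 210 CPM in HF control males and from 49.2 to 145 CPM in HF control females (log2 0.72, 95% interval 0.12 to 1.33, adjusted p = 0.0902). Without female replicate 1, 4 members were called in HF controls, Saa1, Saa2, Orm2 and Lcn2, when 5053 genes were called in place of 2624. Without female replicate 3, 4 were called in HF labelled knockouts, Saa1, Saa2, Saa4 and Hp. There the fits without 1 library each called 1278 to 2002 genes, beside 2045 with all livers. On HFCF, 0 of 10 were called in controls (2.63% of all genes), and 0 by the DESeq2 Wald test. Unadjusted p was under 0.05 for 1 member, beside 2269 of 15054 genes tested. In HFCF labelled knockouts 1 of 10 was called (5.40% of all genes). This was Apcs, at 53.6 to 72.9 CPM in males and 78.9 to 108 CPM in females, without overlap (log2 -0.63, SE 0.12, adjusted p = 0.00999), a call kept in all 10 fits without 1 library each.

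Livers of the same group that were high in Saa1 were also high in Saa2, Orm2, Lcn2 and Hp. Each liver's log2 CPM was taken as its deviation from the group mean, and the 45 pairs of members were correlated over 48 livers with 100000 permutations within groups. Benjamini-Hochberg adjusted p was under 0.05 for 26 pairs by Pearson's r, all with a positive r, and for 24 by Spearman's rho. Saa1 and Saa2 gave r = 0.96 (rho 0.96, permutation p = 1e-05, adjusted 5e-05), and r = 0.95 without the 2 livers farthest from the median of Saa1. On different chromosomes, Saa1 and Orm2 gave r = 0.92 (rho 0.88), Orm2 and Lcn2 0.92 (rho 0.88), Saa1 and Lcn2 0.90 (rho 0.81) and Lcn2 and Hp 0.89 (rho 0.75), each with the smallest permutation p that 100000 draws can give, 1e-05. Without the 2 farthest livers these were 0.90, 0.89, 0.87 and 0.85. Within males they were 0.91, 0.94, 0.92 and 0.88, and within females 0.92, 0.91, 0.89 and 0.90.

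Saa4 and Crp stood outside this pattern. Saa4 was related at the threshold to Saa3 alone (r = 0.45, rho 0.41, permutation p = 0.0097, adjusted 0.0175, and r = 0.49 without the 2 farthest livers). This pair passed in neither sex alone (r = 0.33 in males, adjusted p = 0.274, and 0.54 in females, adjusted p = 0.0688). With its neighbour Saa1 it gave r = 0.23 (rho 0.15, permutation p = 0.22, adjusted 0.299). Crp was related to Orm1 alone (r = 0.45, rho 0.42, permutation p = 0.0056, adjusted 0.0115, and r = 0.39 without the 2 farthest livers). Crp and Orm1 gave r = 0.15 within males (adjusted p = 0.541) and 0.62 within females (adjusted p = 0.0281). Crp and Apcs, which lie beside each other on chromosome 1, gave r = 0.30 (rho 0.28, permutation p = 0.0827, adjusted 0.133). Within females this pair passed (r = 0.56, adjusted p = 0.0463), and within males it did not (r = -0.13, adjusted p = 0.645). Hp was related to the inducible genes between livers although its level varied little between diets: 7 of its 9 pairs passed by Pearson's r, all but those with Saa4 and Crp. In males alone 22 pairs passed, and in females alone 15.

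**Figure D5:**
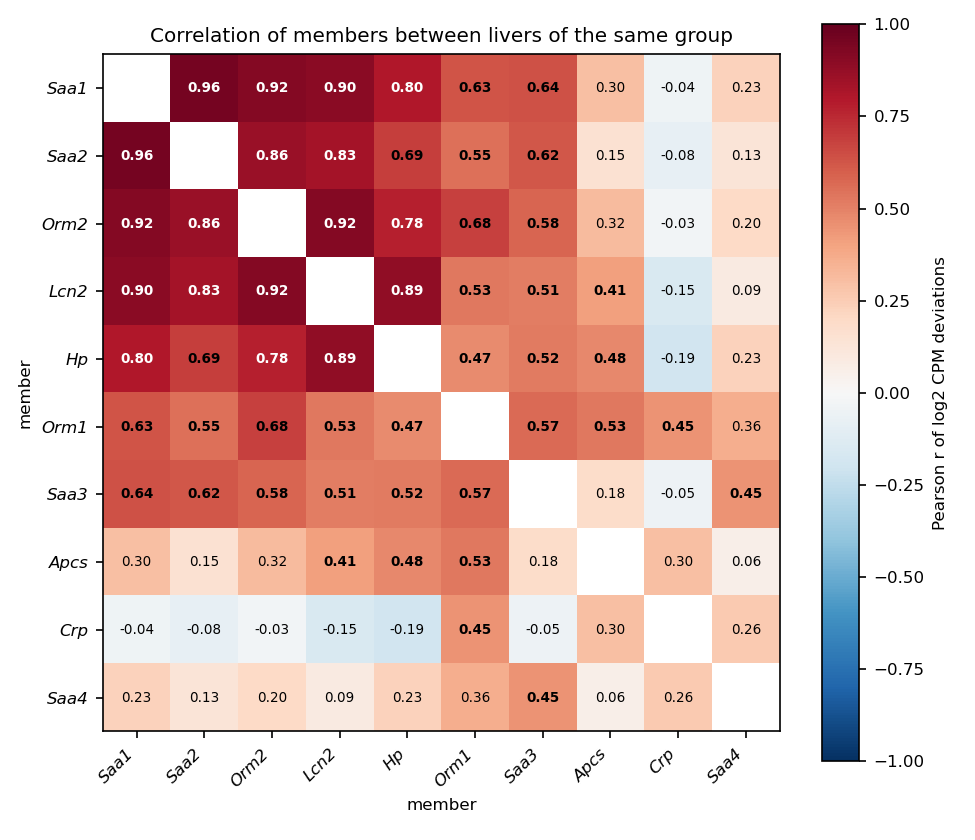
Pearson correlation of log2 CPM deviations from the group mean between each pair of the 10 genes, over 48 livers; colour and number give r, and bold marks adjusted p under 0.05. Saa1, Saa2, Orm2, Lcn2 and Hp form a block with r from 0.69 to 0.96, while the rows of Crp and Saa4 reach 0.45 at most.

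Of 12382 other genes with a named symbol and a mean of at least 1 CPM, those with deviations most like a member's over the 48 livers were given by Pearson's r, as a description. Hpx, which encodes the haem-binding hemopexin, was among the 3 closest to Saa1 (0.86), Saa2 (0.81), Orm2 (0.79), Lcn2 (0.83) and Hp (0.88). The neighbouring membrane protein genes Tmem176a and Tmem176b were among the 3 closest to Saa1 (0.80 and 0.74), Orm2 (0.80 and 0.75), Lcn2 (0.89 and 0.83) and Hp (0.85 and 0.80). Saa2 had Ly6c2 (0.77) and Nfkb2 (0.75) beside Hpx. Saa3 had AW112010 (0.72), the immunoproteasome gene Psmb8 (0.68) and Rrnad1 (0.65). Saa4 was most like the cytochrome P450 gene Cyp3a13 (0.83), Hrg (0.81) and the C1 inhibitor gene Serping1 (0.80). Orm1 was most like Ambp (0.72), Prg4 (0.72) and its paralogue Orm3 (0.70), which may share reads with it. Crp had Scrn3 (0.67), Prr16 (0.66) and Ipmk (0.63), and Apcs had Fgl1 (0.72), Serpina10 (0.61) and Rad51b (0.60).

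Other positive acute phase proteins moved in both directions on HFCF. Of 21 tested in control females, 4 rose and 4 fell from HF, beside 30.8% of all genes called, with a median log2 change of -0.24 beside -0.02 over all genes. Il1rn, the interleukin 1 receptor antagonist, rose (log2 0.78, adjusted p = 0.0098), as did the endotoxin receptor Cd14 (1.55, adjusted p = 0.0107) and the metalloreductase Steap4 (0.47, adjusted p = 0.0203). The serpins Serpina3m (-0.99, adjusted p = 0.00561) and Serpina1a (-1.02, adjusted p = 0.00864) fell. In labelled-knockout females 1 of 21 rose, Cd14 (log2 1.34, adjusted p = 0.029), and 2 fell, C3 and Itih4, beside 14.5% of all genes called (median -0.31, against -0.01 over all genes). In control males 4 of 21 rose and 4 fell, beside 22.3% of all genes (median -0.09, against 0.01). Cd14 (0.94, adjusted p = 0.00362) and the iron hormone Hamp (1.99, adjusted p = 0.00609) were among those that rose. In labelled-knockout males 3 of 20 rose and 12 fell, beside 41.7% of all genes (median -0.37, against -0.02), with Serpina3m at -1.01 (adjusted p = 7.61e-07). Against LF, 5 of 21 rose and 11 fell in control females, beside 35.2% of all genes (median -0.64), with Hamp falling by 3.46 on the log2 scale (adjusted p = 4.16e-04). In labelled-knockout females 2 of 20 rose and 4 fell, beside 12.0% of all genes (median -0.63, against 0.01).

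Called negative acute phase proteins were all lower on HFCF, in numbers that differed between groups. In control females 9 of 10 fell from HF, beside 30.8% of all genes called in either direction (median log2 -0.73), among them transthyretin (Ttr, from 6080 ± 686 to 3500 ± 333 CPM, SD, n = 4, adjusted p = 0.00604). In labelled-knockout females 2 of 10 fell, Igf1 and Serpina6, beside 14.5% of all genes (median -0.53). In control males 6 of 10 fell, beside 22.3% (median -0.28), and in labelled-knockout males 9 of 10, beside 41.7% (median -0.63). Against LF, 8 of 10 fell in control females, beside 35.2%, and 3 of 10 in labelled knockouts, beside 12.0%. Albumin (Alb) went from 57600 ± 7910 to 36300 ± 6570 CPM in control males (n = 6, adjusted p = 0.00517). Albumin and transthyretin are also in the hepatocyte marker list, so that list is not separate evidence. In the labelled knockout of HF males all 10 rose, beside 18.5% of all genes called (median log2 0.38, against 0.00 over all genes), and Ahsg, the fetuin A gene, had the smallest adjusted p (log2 0.53, adjusted p = 1.62e-04). There 9 of 21 other positive acute phase proteins also rose, Serpina3m among them (0.68, adjusted p = 1.58e-04), while Cd14 (-0.90, adjusted p = 0.00332) and Il1rn (-0.69, adjusted p = 0.00723) fell.

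Genes of cytokine signalling to hepatocytes moved in both directions. In control females 9 of 25 rose and 5 fell from HF to HFCF, beside 30.8% of all genes called (median log2 0.16, against -0.02). Osmr, the oncostatin M receptor, went from 5.72 ± 2.53 to 16.3 ± 1.53 CPM (n = 4, log2 1.53, adjusted p = 0.00597), and Nfkb1 rose by 0.48 (adjusted p = 0.00561). Il6ra, the interleukin 6 receptor, fell from 99.5 ± 26.8 to 44.1 ± 2.83 CPM (log2 -1.15, adjusted p = 0.00546). Il6ra and Osmr, singled out after their values were seen, were called in these directions in all 4 comparisons of HFCF with HF, with Il6ra at -1.54 in labelled-knockout females, -0.42 in control males and -0.62 in labelled-knockout males. The counts were 1 higher and 3 lower of 24 in labelled-knockout females, beside 14.5% of all genes called, 6 and 4 of 25 in control males, beside 22.3%, and 6 and 6 of 24 in labelled-knockout males, beside 41.7%. The cytokines Il6, Osm, Il1b, Il1a, Tnf and Lif and the factors Cebpb, Cebpd, Cebpa and Rela were also singled out afterwards. Il6 itself had no reads in 38 of 48 libraries and at most 0.181 CPM, and Osm had none in 18 of 48 and at most 0.626 CPM. Cebpb and Rela were not called in any of these 4 comparisons. Il1b, Il1a, Tnf, Lif and Cebpd were called higher in control females. Lif and Cebpd were called higher in control males, and Il1b, Il1a and Tnf in labelled-knockout males. Cebpa was called lower in control females and in males of both genotypes. In labelled-knockout females none of these cytokines or factors was called. Stat3 was called in labelled-knockout males (log2 -0.40, adjusted p = 3.10e-04).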

How the data were processed

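RNA sequencing of whole mouse liver was taken from 48 mice in 10 groups, and the authors deposited raw read counts per gene in 11 comparison tables that overlap. Reads were aligned to GRCm38 (mm10) with STAR 2.6.1 and counted with HTSeq 0.6.1, and DESeq2 (listed as version 2) was used, per the submitters' processing notes. The libraries were not stranded, so reads of overlapping genes on the other strand, such as the pseudogene Gm38051 at Crp, cannot be told apart. The 11 tables were joined by gene identifier to 29221 genes. Of 1341082 counts present in more than 1 table, 0 differed. Each gene listed in a table summed to at least 2 reads over its libraries, and a gene absent from every table of a library was set to 0 there (10.3% of values).

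Levels (CPM) were scaled by TMM over 48 libraries, and each of 24 comparisons was fitted on its own groups with edgeR 4.0.16 (filterByExpr, minimum count 10, quasi-likelihood test, Benjamini-Hochberg adjustment over all genes tested) in R 4.3.3. The procedure was tested on simulated counts in which all genes had the same relative spread and no liver stood apart, unlike these data. Alternatives were DESeq2 1.42.0 Wald tests, DESeq2 size factors, no filter on low counts, all 48 libraries in one fit, a replicate block and leaving out each library. Leaving out the libraries that stood apart was added after seeing the data. The p-values measure the spread between these mice. Depth of 15338239 to 22072884 reads put each member at 23 reads or more in every library. The 10 members and the gene lists were chosen with earlier results of these data known. Besides the members, up to 3 genes that rose and 3 that fell were named per pathway list and comparison, by smallest adjusted p, and the 3 genes most like each member by Pearson's r of within-group deviations of log2 CPM (prior count 2). The other choices made after seeing values are marked in the text. Gene models came from GENCODE M21, whose coordinates matched those of the tables for 97.4% of 29210 shared genes.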

Additional observations from a re-analysis of the deposited data

Results flagged for a closer look

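In 9 of 100 combinations of a member and a group, 1 liver lay farther from the rest than Dixon's 95% critical value allows, and chance alone gives about 1 in 20 combinations. In male HF controls replicate 6 was low in Orm2 (16.1 CPM) and in Lcn2 (37.4 CPM). In male HFCF controls replicate 1, which stood apart from its group over all genes, was low in Orm2 (23.6 CPM) and Lcn2 (44.8 CPM). Replicate 6 was low in Hp (2750 CPM) among male HF labelled knockouts and low in Saa1 (126 CPM) among male HFCF labelled knockouts. In female LF controls replicate 2 was low in Saa4 (174 CPM) and high in Orm1 (701 CPM). In female HF labelled knockouts replicate 3, the liver with neutrophil transcripts, was high in Saa4 (480 CPM). The combinations share livers and the members are correlated, so these 9 are not independent of each other.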

How the results depend on the processing

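No result reversed under any alternative. The limits are the 4 livers per female group, the uncertain division of reads between Saa1 and Saa2 and between Orm1 and Orm2, and counts of whole tissue; the causes of the shifts below were not tested. Replicate numbers were not treated as pairs in the main test. Same-numbered livers correlated at -0.29 to 0.43, and no comparison had all pairs over 0.1. At most 2 livers of a comparison correlated best with their own number. With 3 to 6 such pairs per comparison, this cannot show that the mice were unpaired. Some same-numbered HF males of the 2 genotypes carry adjacent animal numbers. With a replicate block, members called went from 2 to 5 for the labelled knockout in HF males, from 6 to 0 for HFCF against HF in control females, and from 1 to 0 for sex in HFCF labelled knockouts. In the second of these, 4526 genes were called without the block and 0 with it.

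The DESeq2 Wald test called 4 members in place of 1 for HF against LF in control females, 3 in place of 0 in labelled-knockout females, 1 in place of 0 for sex in HF labelled knockouts, and 2 in place of 1 for sex in HFCF labelled knockouts. Without the filter on low counts, 2 were called for HF against LF in control females and 5 for HFCF against LF in labelled-knockout females. One fit of all 48 libraries called 3 for HF against LF in each genotype, 5 for HFCF against LF in labelled-knockout females and 2 for HFCF against HF in control males. In that last comparison the calls of Saa1, Saa2 and Lcn2 were lost. Without the livers that stood apart, the counts that moved by over 1.5 times, or away from 0, were 1 for the labelled knockout in HFCF males, 4 for HF against LF in control females, 7 for HFCF against HF in labelled-knockout females, 4 for sex in HF controls, 4 for sex in HF labelled knockouts, and 3 for the sex difference in the HFCF effect of controls. Smaller moves were from 6 to 7 for HFCF against HF in control females, from 5 to 6 in control males, and from 3 to 4 for HFCF against LF in labelled-knockout females. Related pairs numbered 15 in females alone, 22 in males alone and 26 overall.

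Leaving out 1 library at a time gave 2 to 3 called members for the labelled knockout in HF males and 0 to 1 in HFCF males. It gave 0 to 1 for HF against LF in control females, 1 to 7 and 0 to 7 for HFCF against HF in control and labelled-knockout females, and 5 to 6 and 2 to 5 against LF. It gave 3 to 6 and 6 to 8 for HFCF against HF in control and labelled-knockout males, 0 to 4 for sex in HF controls and in HF labelled knockouts, 1 to 2 in HFCF labelled knockouts, and 0 to 1 for the sex difference in the HFCF effect of controls. Over all genes, leaving out 1 library moved the number called for HFCF against HF in control females from 4526 to between 2454 and 6530. It moved from 2624 to between 1340 and 5053 for sex in HF controls. For the sex difference in the HFCF effect of controls it moved from 1 to between 0 and 1699.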
